A study of Mus musculus with 12 samples.

Results

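*Dppa3* and 9 further genes of the pluripotency circuit were followed in the embryonic mouse testis, as marks of the gonocytes, the fetal germ cells of the testis. The 10 genes were *Dppa3*, *Nanog*, *Sox2*, *Pou5f1*, *Lin28a*, *Dppa5a*, *Sall4*, *Utf1*, *Tfap2c* and *Prdm14*, out of 35976 gene symbols in the count data, and all 10 were found and passed the filter on low counts in both generations. They were chosen by name, and selected on the F1 comparison, since the low level of *Dppa3* in F1 *thia* testes was known when the list was drawn up and so were the levels of *Lin28a* and *Sox2*. The F1 values of the 10 genes are therefore given as a description without a test. The F3 pools are separate libraries, and the comparison in F3 was tested. All lists were chosen with earlier results of these data known. The F3 p values, and the F1 p values and calls of the other lists, are not shown to be independent of that choice.

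The series asked whether thiacloprid (*thia*), a neonicotinoid insecticide, changes the developing testis of exposed embryos and of their unexposed descendants. Pregnant outbred Swiss (RjOrl) mice received *thia* at 6 mg/kg/day by gavage between E6.5 and E15.5, or the oil vehicle at a dose of 0, and all testes were collected at E15.5. F1 embryos were exposed directly, through the mother. The F3 embryos were reached by crossing F1 males and then F2 males to untreated unrelated females, so their groups differed by design in the treatment of the founder mothers. Each library was a pool of testes from 3 embryos, with 3 pools in each of 4 groups (F1 control, F1 *thia*, F3 control and F3 *thia*), and no pool was a sorted cell population. The breeding was done from 2 independent treatments, and the labels do not tell which pool came from which. The 12 libraries held between 25081647 and 68996146 counts assigned to genes. F1 *thia* replicate 2 had skeletal muscle markers at a summed level of 320.3 CPM (counts scaled to the library total, per 1e6) against 26.9 to 61.7 in the other F1 pools, and F3 *thia* replicate 2 stood farthest from the replicates of its group and had the lowest germ cell marker level of the 12 pools.

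Germ cells are the cells of the fetal testis known for keeping this circuit. Primordial germ cells re-express the transcription factors of the early embryo, and after male sex determination the gonocytes shut several of them down as they stop dividing and start to rebuild their DNA methylation. DPPA3, also known as Stella or PGC7, marks germ cells from their specification and binds UHRF1, which recruits the maintenance methyltransferase DNMT1, and in the zygote it shields the maternal genome from demethylation.

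*Dppa3* lies on chromosome 6 (GRCm38/mm10, chr6:122626410-122630272, plus strand) and *Nanog* lies 77.2 kb downstream of it on the same strand (chr6:122707489-122714633). The opening 300 of the 453 coding bases of *Dppa3*, which encode 150 amino acids before the stop, are shown because this transcript has the clearest difference between groups; the capitals mark the start codon. GENCODE M21 lists 2 pseudogene copies of it, *Dppa3-ps* and *Gm47576*, and neither had a row of its own in the count data, and how reads matching several copies were counted is not stated.
Dppa3 coding start: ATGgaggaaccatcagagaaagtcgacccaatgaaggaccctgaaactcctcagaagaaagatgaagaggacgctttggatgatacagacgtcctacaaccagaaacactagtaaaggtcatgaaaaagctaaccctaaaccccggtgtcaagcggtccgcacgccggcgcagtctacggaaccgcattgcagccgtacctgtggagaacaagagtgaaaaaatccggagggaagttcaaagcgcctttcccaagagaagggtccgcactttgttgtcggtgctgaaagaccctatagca

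Promoter windows (250 bases before to 50 after a RefSeq transcript start, GRCm38.p6) were held for *Nanog*, *Sox2*, *Pou5f1*, *Lin28a* and *Utf1*, 5 of the 10 genes. Those of *Nanog* (chr6:122707239-122707538, plus strand), *Sox2* (chr3:34649745-34650044, plus), *Lin28a* (chr4:134018767-134019066, minus) and *Pou5f1* (chr17:35505782-35506081, plus) are printed because the first 3 genes had F1 pools that did not overlap between groups while *Pou5f1* had pools that did. Capitals mark exact matches, on either strand, to the SOX motifs ACAATG and ACAAAG, the AP-2 motif GCCNNNGGC, the GC box GGGCGG and the CCAAT box CCAAT.
Nanog promoter: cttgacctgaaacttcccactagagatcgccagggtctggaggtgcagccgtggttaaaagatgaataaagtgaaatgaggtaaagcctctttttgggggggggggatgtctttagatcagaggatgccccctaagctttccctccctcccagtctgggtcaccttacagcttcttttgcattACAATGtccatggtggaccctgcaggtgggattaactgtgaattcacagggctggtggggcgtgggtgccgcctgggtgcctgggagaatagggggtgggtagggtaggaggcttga
Sox2 promoter: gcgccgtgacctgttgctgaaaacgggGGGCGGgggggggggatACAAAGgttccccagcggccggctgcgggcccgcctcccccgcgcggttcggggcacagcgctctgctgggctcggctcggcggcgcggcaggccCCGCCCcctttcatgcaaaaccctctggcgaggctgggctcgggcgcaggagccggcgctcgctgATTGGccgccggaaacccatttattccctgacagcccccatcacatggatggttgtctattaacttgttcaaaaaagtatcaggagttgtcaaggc
Lin28a promoter: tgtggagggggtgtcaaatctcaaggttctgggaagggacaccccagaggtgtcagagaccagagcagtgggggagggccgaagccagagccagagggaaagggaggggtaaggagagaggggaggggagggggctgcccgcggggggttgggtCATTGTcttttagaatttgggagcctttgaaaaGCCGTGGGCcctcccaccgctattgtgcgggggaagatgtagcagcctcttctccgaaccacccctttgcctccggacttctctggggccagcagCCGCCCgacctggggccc
Pou5f1 promoter: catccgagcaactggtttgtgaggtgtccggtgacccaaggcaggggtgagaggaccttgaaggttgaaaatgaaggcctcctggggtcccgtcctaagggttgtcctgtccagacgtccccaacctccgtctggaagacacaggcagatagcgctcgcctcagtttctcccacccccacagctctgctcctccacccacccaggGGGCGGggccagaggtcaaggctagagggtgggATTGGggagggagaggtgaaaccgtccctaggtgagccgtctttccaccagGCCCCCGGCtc

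The motif ACAATG stood 67 bases before the start of *Nanog*, at the composite element known to bind OCT4 and SOX2, and its reverse complement stood 96 bases before that of *Lin28a*. A second window of *Pou5f1*, at a later start, held it 158 bases before that start. It was present in 12.8% of 27025 promoters of the same length. *Sox2* had ACAAAG 206 bases before its start, a motif found in 18.7% of promoters. The AP-2 motif occurred in the printed windows of *Lin28a* and *Pou5f1*, in a second window of *Nanog* 16 bases after a later start, and in 16.5% of all promoters, and the GC box occurred in those of *Sox2*, *Lin28a*, *Pou5f1* and, 4 times, *Utf1*, against 35.9% of all. The octamer ATGCAAAT (1.75% of promoters), the TATA box TATAAA (14.2%) and the E-box CACGTG (7.24%) had no exact match in any window of these genes, and the CCAAT box was in the windows of *Sox2* and *Pou5f1* and in 37.9% of all promoters. Such a match is a string of letters and says nothing of binding in these testes.

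*Dppa3* was 3.22-fold lower in F1 *thia* than in F1 control testes. The F1 control pools had 64.6, 76.8 and 76.7 CPM (72.7 ± 7.01, mean and SD, n = 3), and the F1 *thia* pools had 26.8, 25.1 and 15.3 CPM (22.4 ± 6.22, n = 3). The highest *thia* pool was thus below the lowest control pool, and the log2 fold change of *thia* over control was -1.69 (SE 0.185). *Dppa3* was 1 of the 2 genes called in F1 at an FDR of 0.15, a share of 0.0105% of the 19137 genes tested; this call is what chose it. The call was lost without F1 control replicate 2, without F1 control replicate 3 and in a single fit of all 12 libraries, and DESeq2 called 199 genes in F1. Levels are CPM scaled by TMM over the 12 libraries, and fold changes come from the edgeR fit of each generation.

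In F3 the same direction was measured at a lower level, and the change did not pass the test. The F3 control pools had 39.8, 29.6 and 17.4 CPM of *Dppa3* (28.9 ± 11.2, n = 3), and the F3 *thia* pools had 17.5, 4.06 and 12.6 CPM (11.4 ± 6.80, n = 3). The groups met at a single point, where the highest *thia* pool and the lowest control pool had nearly equal values. The log2 fold change was -1.34 (SE 0.502), with an unadjusted p of 0.0306 and an adjusted p of 0.191 over the 18539 genes tested (edgeR, quasi-likelihood test, Benjamini-Hochberg method, threshold 0.1). DESeq2 gave an adjusted p of 0.177. Without F3 *thia* replicate 2, the pool with 4.06 CPM, the value was -0.95 (SE 0.317, adjusted p = 0.146). Whether the change in F3 differs from that in F1 was not tested, because the F1 values had been used to choose the gene.

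**Figure D1:**
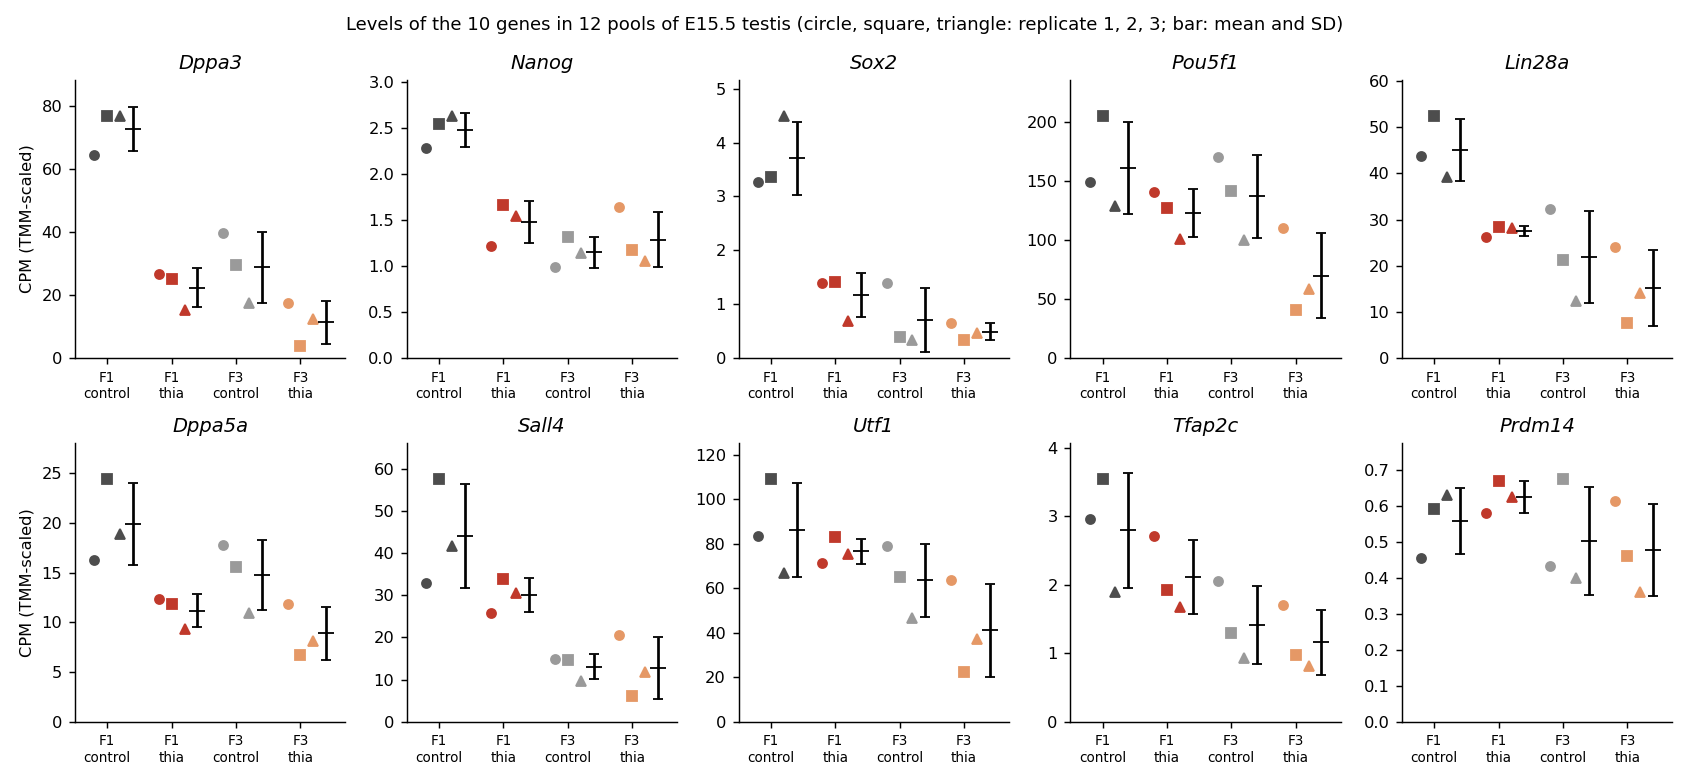
CPM of each gene (y axis, TMM-scaled over the 12 libraries, starting at 0) in the 4 groups (x axis), with each of the 3 pools as a point, replicate 1 a circle, replicate 2 a square and replicate 3 a triangle, and the bar giving mean and SD. The F1 control pools of *Dppa3* sit at 64.6 to 76.8 CPM, above all other pools, and F3 *thia* replicate 2 is the lowest of the 12 pools for 7 of the 10 genes.

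*Nanog* and *Sox2*, the homeobox and HMG-box factors that act with OCT4 in pluripotent cells, were among the low transcripts of the set. *Nanog* had 2.28, 2.54 and 2.63 CPM in F1 control pools (2.48 ± 0.185, n = 3) and 1.22, 1.66 and 1.55 CPM in F1 *thia* pools (1.48 ± 0.232, n = 3), which did not overlap, with a log2 fold change of -0.73 (SE 0.210). In F3 it had 0.993, 1.32 and 1.14 CPM in control pools and 1.64, 1.18 and 1.06 CPM in *thia* pools. These F3 values overlapped and their log2 fold change was 0.16 (SE 0.248, adjusted p = 0.755), and without F3 *thia* replicate 1 it was -0.05. The summed raw counts of *Nanog* were 124 over the F3 control pools and 184 over the F3 *thia* pools.

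*Sox2* had 3.27, 3.36 and 4.49 CPM in F1 control pools (3.71 ± 0.677, n = 3) and 1.40, 1.41 and 0.700 CPM in F1 *thia* pools (1.17 ± 0.409, n = 3). All *thia* pools were lower, with a log2 fold change of -1.65 (SE 0.286), close in size to that of *Dppa3*. In F3 control testes it was already at 1.40, 0.404 and 0.345 CPM, and F3 *thia* pools had 0.659, 0.345 and 0.464 CPM (log2 fold change -0.52, SE 0.566, adjusted p = 0.643). The F3 estimate turned to 0.39 (SE 0.391) without F3 control replicate 1, the pool with 1.40 CPM, and 73 and 72 raw counts were summed over the F3 control and *thia* pools. The gene lies within the transcript *Sox2ot* on the same strand, so its counts can include reads of that transcript.

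*Pou5f1*, which encodes OCT4, was the most abundant of the 10 genes in CPM and among the highest per length. F1 control pools had 149, 205 and 129 CPM (161 ± 39.0, n = 3) and F1 *thia* pools had 140.5, 127 and 101 CPM (123 ± 20.0, n = 3). These values overlapped, and the log2 fold change was -0.38 (SE 0.169). In F3 the control pools had 170.4, 142 and 100.3 CPM (137 ± 35.2, n = 3) and the *thia* pools 110.0, 40.9 and 58.7 CPM (69.9 ± 35.9, n = 3). The F3 estimate of -0.98 (SE 0.353) was larger in size than that of F1, with an unadjusted p of 0.0266 and an adjusted p of 0.18, and the pools overlapped because F3 *thia* replicate 1 was above F3 control replicate 3.

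The RNA-binding proteins of the list were lower in F1 *thia* as well. *Lin28a*, which blocks maturation of the let-7 microRNAs, had 43.7, 52.4 and 39.3 CPM in F1 control pools (45.1 ± 6.70, n = 3) and 26.3, 28.4 and 28.1 CPM in F1 *thia* pools (27.6 ± 1.12, n = 3), with a log2 fold change of -0.69 (SE 0.118). The F1 *thia* pools of *Lin28a* lay closer together than any other group of this gene. In F3, *Lin28a* had 32.3, 21.2 and 12.5 CPM in control pools and 24.0, 7.71 and 14.2 CPM in *thia* pools (log2 fold change -0.52, SE 0.448, adjusted p = 0.544). The F3 value shrank to -0.14 (SE 0.463) without F3 control replicate 1 and to -0.21 (SE 0.372) without F3 *thia* replicate 2.

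*Dppa5a*, a KH-domain protein of pluripotent cells, had 16.3, 24.4 and 18.9 CPM in F1 control pools (19.9 ± 4.14, n = 3) and 12.4, 11.9 and 9.30 CPM in F1 *thia* pools (11.2 ± 1.65, n = 3), with a log2 fold change of -0.82 (SE 0.166) and no overlap. In F3 it had 17.8, 15.6 and 10.9 CPM in control pools and 11.9, 6.68 and 8.10 CPM in *thia* pools. The log2 fold change in F3 was -0.73 (SE 0.252), with an unadjusted p of 0.0217 and an adjusted p of 0.168, and it was the member that DESeq2 called (adjusted p = 0.0406). *Dppa5a* has 8 near copies that match at least 90% of bases over more than 50% of its transcript, of which 6 are pseudogenes and 2 (*Pigp* and *Gm6083*) have rows in the count data, so reads may have been split among them and its values are uncertain.

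*Sall4*, a zinc-finger factor that keeps germ cells and stem cells undifferentiated, had 33.0, 57.5 and 41.8 CPM in F1 control pools and 25.8, 33.9 and 30.6 CPM in F1 *thia* pools, which overlapped (log2 fold change -0.54, SE 0.184). In F3 it was 13.1 ± 2.95 CPM in control and 12.8 ± 7.31 CPM in *thia* testes (n = 3 each), with a log2 fold change of -0.04 (SE 0.40, adjusted p = 0.966). With a pool left out, the F3 value ran from -0.57 without F3 *thia* replicate 1 to 0.29 without F3 *thia* replicate 2. *Utf1*, a chromatin-bound factor of stem cells and spermatogonia, was 86.4 ± 21.1 and 76.7 ± 5.72 CPM in F1 control and *thia* (log2 fold change -0.16, SE 0.152), and its F1 pools overlapped. In F3 it was 63.6 ± 16.4 and 41.1 ± 20.8 CPM (log2 fold change -0.63, SE 0.358, adjusted p = 0.359).

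*Tfap2c* and *Prdm14*, which act with *Prdm1* when primordial germ cells are specified, were low in every pool. *Tfap2c* ranged from 0.809 to 3.54 CPM over the 12 pools, with log2 fold changes of -0.41 (SE 0.271) in F1 and -0.29 (SE 0.388, adjusted p = 0.705) in F3, or 0.06 without F3 control replicate 1. *Prdm14* ranged from 0.36 to 0.674 CPM and was the single member above control on average in F1, at a log2 fold change of 0.18 (SE 0.284). In F3 its value was -0.09 (SE 0.335, adjusted p = 0.905), or 0.17 without F3 control replicate 2 and 0.10 without F3 *thia* replicate 3, and 54 to 99 raw counts per group lie behind these values. Neither gene had pools that separated control from *thia* in CPM in either generation.

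**Figure D2:**
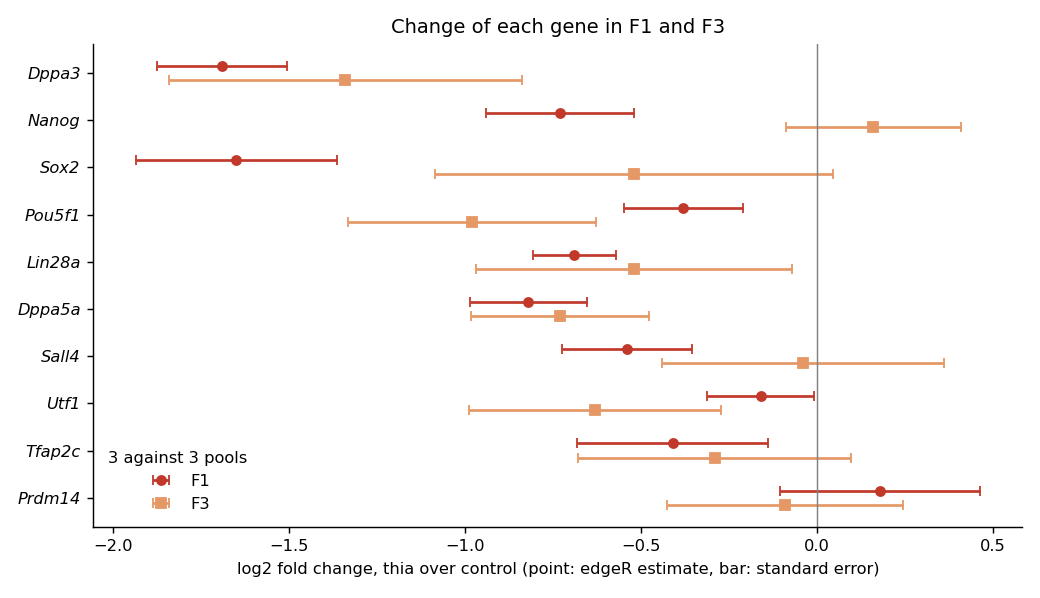
Log2 fold change of *thia* over control (x axis, edgeR estimate with its standard error as a bar) for each gene (y axis), with F1 as circles and F3 as squares, 3 against 3 pools in each. In F1 the estimates run from -1.69 for *Dppa3* to 0.18 for *Prdm14*, and in F3 from -1.34 for *Dppa3* to 0.16 for *Nanog*.

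Counted over the list, 9 of 10 genes had a lower mean in F1 *thia* and 9 of 10 in F3 *thia*, and the median log2 fold change was -0.62 in F1 and -0.52 in F3, against 0.01 and 0.00 over all genes tested. In F1 the *thia* pools were all below the control pools for 5 members (*Dppa3*, *Nanog*, *Sox2*, *Lin28a* and *Dppa5a*), where the share over all genes was 8.45%. This count uses the values that chose the list. In F3 the edgeR test called 0 of 10 members and 0% of all genes. Some genes outside the list stood just above the threshold of 0.1, at an adjusted p of 0.101. At an unadjusted p under 0.05, 3 members were lower (*Dppa3*, *Pou5f1* and *Dppa5a*) and 0 higher, with 10.0% of all genes lower at that level in F3 and 4.13% in F1. DESeq2 called 1 member in F3 and 5.95% of genes as lower, and it gave no adjusted p to *Nanog*, *Sox2*, *Tfap2c* and *Prdm14*. In F3, 0 members had *thia* pools all below control pools, against 13.9% of all genes.

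Per length, the order of the genes in F1 control testes was *Dppa3* (81.5 RPKM, which is CPM per kilobase of exon), *Pou5f1* (71.7), *Utf1* (70.4), *Dppa5a* (32.1), *Lin28a* (11.3), *Sall4* (7.96), *Sox2* (1.80), *Nanog* (1.11), *Tfap2c* (0.761) and *Prdm14* (0.218). By this measure *Dppa3* was the top transcript of the set in unexposed F1 testes, although *Pou5f1* and *Utf1* were close to it. The order at the top depends on the length used. All annotated exons covered 892 bases for *Dppa3* and 2248 for *Pou5f1*, while a coding transcript of each had 833 and 1362 bases. With the transcript lengths *Pou5f1* would stand above *Dppa3*. In F3 control testes *Dppa3* stood at 32.4 RPKM, below *Pou5f1* (61.1) and *Utf1* (51.9). The core pair *Nanog* and *Sox2* stayed under 2 RPKM in every group.

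The control groups of F1 and F3 were at unlike levels. All 10 members had a lower mean in F3 control than in F1 control pools, and for *Dppa3*, *Nanog*, *Sox2*, *Lin28a* and *Sall4* the pools did not overlap. F1 control exceeded F3 control 5.18-fold for *Sox2*, 3.35-fold for *Sall4*, 2.51-fold for *Dppa3*, 2.16-fold for *Nanog* and 2.05-fold for *Lin28a*, and 1.11-fold to 1.97-fold for the other members. The germ cell markers *Ddx4*, an RNA helicase, and *Dazl*, an RNA-binding protein, were lower in F3 control by 1.96-fold and 2.57-fold, and the summed blood markers averaged 3335 CPM in F1 control and 25871 CPM in F3 control. Generation, breeding and library preparation cannot be told apart in this contrast, and the F1 control pools had been used to choose the genes, so it was not tested.

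By group, the highest mean was that of F1 control for every member except *Prdm14*. For *Dppa3* the order was F1 control, F3 control, F1 *thia* and F3 *thia*, and the F1 control pools stood apart from the next group while each later neighbour overlapped the one before. *Sox2* and *Lin28a* followed the order F1 control, F1 *thia*, F3 control and F3 *thia*, again with F1 control apart and the others overlapping. *Nanog* had F3 *thia* above F3 control as its last pair, and its F1 control pools were apart as well. *Sall4* broke differently, since its F1 control and F1 *thia* pools overlapped and the F1 *thia* pools stood apart from F3 control. For *Pou5f1*, *Dppa5a*, *Utf1*, *Tfap2c* and *Prdm14* no neighbours in the order were apart.

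The pools varied together. F3 *thia* replicate 1 was the highest F3 *thia* pool for all 10 members, F3 *thia* replicate 2 the lowest for 7, and F3 control replicate 3 the lowest F3 control pool for 9. The germ cell marker sum had the same order, with 1482, 735 and 955 CPM in F3 *thia* replicates 1 to 3 and 1577, 1445 and 1001 CPM in F3 control. *Dppa3* spanned a 4.31-fold range among the F3 *thia* pools and a 1.19-fold range among the F1 control pools. Blood markers ran the other way in F3 *thia*, with 35647 CPM in replicate 2 against 15722 and 17566 CPM in the others. Fewer germ cells and less of these transcripts per germ cell cannot be told apart in a whole testis.

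The germ cell label was checked with 15 markers of fetal germ cells, all of which were detected in every group, beside 588 to 1734 CPM of 8 Sertoli cell markers and 2184 to 6934 CPM of 6 fetal Leydig cell markers per pool. Their summed level was 1761, 2446 and 2239 CPM in F1 control and 1913, 1825 and 1719 CPM in F1 *thia* pools. The groups overlapped, with a log2 difference of -0.23 (exact two-sided permutation test, p = 0.3, n = 3 each), and the F3 difference was -0.38 (exact permutation p = 0.3). With 3 against 3 pools no p below 0.1 can be reached. Singly, 14 of the 15 markers were lower in F1 *thia* and 15 of 15 in F3 *thia*, with medians of -0.38 and -0.27, and 0 were called by edgeR, while 7 in F1 and 3 in F3 were lower at an unadjusted p under 0.05 (4.13% and 10.0% of all genes). DESeq2 called 4 of them lower in F1 and 2 in F3, against 0.544% and 5.95% of the genes it tested. *Ddx4* was at -0.47 (SE 0.148, adjusted p = 0.507) in F1 and -0.48 (SE 0.277, adjusted p = 0.367) in F3, and *Dazl* at -0.65 (SE 0.198, adjusted p = 0.503) and -0.06 (SE 0.151, adjusted p = 0.855).

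Relative to those markers, *Dppa3* was still lower in *thia* testes in both generations. Its CPM was 3.67, 3.14 and 3.42% of the marker sum in F1 control pools and 1.40, 1.37 and 0.890% in F1 *thia* pools. In F3 it was 2.52, 2.05 and 1.74% in control pools and 1.18, 0.552 and 1.32% in *thia* pools. The pools did not overlap in either generation, with log2 differences of -1.51 in F1, given without a test, and -1.13 in F3 (exact two-sided permutation test, p = 0.1, the smallest that 3 against 3 pools allow). Without F3 *thia* replicate 2 the F3 difference was -0.74.

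Scaled the same way, *Nanog* (-0.53), *Sox2* (-1.49), *Lin28a* (-0.47), *Dppa5a* (-0.59) and *Sall4* (-0.29) were below control in all F1 *thia* pools on the log2 scale and *Prdm14* (0.40) was above. For *Sall4* the groups nearly met, at 1.86% of the marker sum in the highest *thia* pool and 1.87% in the lowest control pool. In F3, *Pou5f1* (-0.69), *Dppa5a* (-0.37) and *Utf1* (-0.35) were below control in all *thia* pools, each at an exact permutation p of 0.1. *Nanog* (0.53), *Sall4* (0.19), *Sox2* (0.08), *Tfap2c* (0.09), *Prdm14* (0.31) and *Lin28a* (-0.19) overlapped in F3. Over all genes tested, 1.01% in F1 and 0.922% in F3 had such ratios below control in all *thia* pools. In CPM these shares were 8.45% and 13.9%, and 0 members were below in F3. The ratios of genes from other cells carry the variation of the marker sum, which ran from 735 to 1482 CPM in F3 *thia* pools. The ratio shares are therefore no like background for genes of germ cells. In F3 the fetal Leydig cell and endothelial markers were higher in *thia*. The 6 fetal Leydig cell markers summed to 2184 to 3621 CPM in control and 3819 to 6934 CPM in *thia* pools. The 6 endothelial markers summed to 157 to 181 and 233 to 276 CPM. Both were without overlap (log2 differences 0.81 and 0.56, exact permutation p = 0.1 each). All 6 markers of each list were higher and none was at 0 in any group. The F3 sums of Sertoli cell (0.17), blood (-0.27) and skeletal muscle markers (-0.28) overlapped between groups. The part of these other cells in the results on the 10 genes was not tested.

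**Figure D3:**
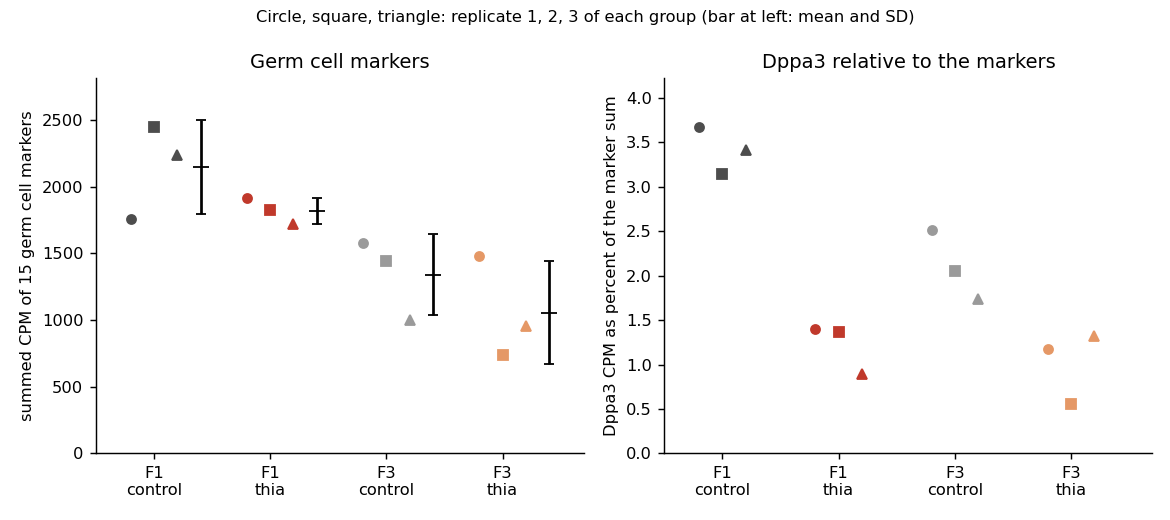
Left, summed CPM of 15 germ cell markers (y axis) in the 4 groups, with pools as points and the bar giving mean and SD; right, the CPM of *Dppa3* as a percent of that sum in the same pools. The marker sums of control and *thia* overlap in each generation, while the percentages do not, at 3.14 to 3.67 against 0.890 to 1.40 in F1 and 1.74 to 2.52 against 0.552 to 1.32 in F3.

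In the wider pluripotency network no gene was called by edgeR in either generation. Of its 24 listed genes, 23 were tested in F1, with 14 lower and 9 higher (median log2 fold change -0.25), and 22 in F3, with 11 lower and 11 higher (median 0.04). At an unadjusted p under 0.05, 8 were lower and 2 higher in F1, where 4.13% of all genes were lower and 4.63% higher. In F3, 1 was lower and 2 were higher, against 10.0% and 11% of all genes. DESeq2 called 5 lower and 0 higher in F1 (0.544% and 0.528% of all) and 1 lower and 1 higher in F3 (5.95% and 9.54% of all). Those with the smallest p in F1 were *Tdgf1*, a co-receptor of NODAL (1.69, SE 0.395), *Trim71*, a let-7 target (-0.72, SE 0.177), *Dppa2*, which works with DPPA4 (-0.81, SE 0.201), and *Tcl1*, an AKT coactivator (-1.11, SE 0.296), each at an adjusted p of 0.446. *Tdgf1* was at 0.161 CPM in control and 0.486 CPM in *thia*, so this estimate rests on few counts. In F3 they were *Klf2* (0.65, SE 0.165, adjusted p = 0.117), *L1td1* (0.78, SE 0.306, adjusted p = 0.207), *Fbxo15* (-0.55, SE 0.220, adjusted p = 0.209) and *Klf5* (0.46, SE 0.203, adjusted p = 0.247).

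Genes of germ cell specification showed no common direction, with 5 of 8 lower in F1 and 4 of 8 in F3 (medians -0.04 and -0.02). *Nanos3*, an RNA-binding protein that protects migrating germ cells, had the smallest p in F1 (-1.09, SE 0.246, adjusted p = 0.412) and was at -0.97 (SE 0.389, adjusted p = 0.215) in F3, with *thia* pools below control pools in both generations. It is also among the 15 germ cell markers, as is *Dnd1* of this list. *Ifitm1* (-0.33), *T* (0.43) and *Ifitm3* (0.17) followed in F1, and *Alpl*, the alkaline phosphatase used to stain germ cells, was at 0.43 (SE 0.164, adjusted p = 0.197) in F3, where *Ifitm3* was at 0.24 and *Dnd1* at -0.27. None of the 8 was called by edgeR. At an unadjusted p under 0.05 there were 2 lower and 1 higher in F1, against 4.13% and 4.63% of all genes. In F3 there were 1 lower and 1 higher, against 10.0% and 11% of all genes. DESeq2 called 1 lower in F1 (0.544% of all genes), and 1 lower and 1 higher in F3 (5.95% and 9.54% of all genes).

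The methylation genes around DPPA3 split by generation in their counts. In F1, 7 of 9 were lower (median -0.13), with *Hells*, a chromatin remodeller needed for methylation, at -0.35 (SE 0.121, adjusted p = 0.518), *Tet2* at -0.41, *Tet1* at -0.25 and *Usp7* at -0.14. In F3, 7 of 9 were higher (median 0.26), and *Tet3*, a dioxygenase that oxidises methylcytosine, was at 0.54 (SE 0.169, adjusted p = 0.147), *Dnmt1* at 0.35 (SE 0.121, adjusted p = 0.167), *Tet1* at 0.40 (SE 0.170, adjusted p = 0.236) and *Uhrf1* at 0.26 (SE 0.124, adjusted p = 0.281). The *thia* pools were above all control pools for 3 of the 9, *Tet3*, *Dnmt1* and *Tet1*, against 13.4% of all genes in F3. Of the 9, edgeR called 0 in F1 and in F3. At an unadjusted p under 0.05, 1 was lower in F1 and 3 were higher in F3, against 4.13% and 11% of all genes. DESeq2 called 0 in F1 and 2 as higher in F3, where it called 9.54% of all genes as higher. The difference between generations was not tested for this list.

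For the LIN28 and let-7 axis, 10 of 12 listed genes had rows, and 9 of 10 were lower in F1 (median -0.15) and 4 of 10 in F3 (median 0.09). *Lin28b*, the paralogue of *Lin28a*, was at -0.41 (SE 0.147, adjusted p = 0.518) in F1, after *Trim71*, which is also in the wider pluripotency network. The let-7 targets *Hmga2* and *Arid3a* were at -0.23 and -0.18 in F1. In F3, *Hmga2* was at -0.54 (SE 0.105, adjusted p = 0.105). Genes of other lists had the same adjusted p, and 0 genes passed the threshold of 0.1 in that fit. The *thia* pools of *Hmga2* had 38.4, 37.5 and 39.5 CPM, below control pools of 54.5, 64.8 and 48.9 CPM. *Igf2bp3* (-0.18), *Arid3a* (0.35) and *Zcchc6* (0.18), which encodes a uridylyltransferase of pre-let-7, followed. With edgeR 0 of these genes were called. At an unadjusted p under 0.05, 2 in F1 and 1 in F3 were lower, against 4.13% and 10.0% of all genes. DESeq2 called 1 lower in each generation, against 0.544% of all genes in F1 and 5.95% in F3.

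Genes of the fetal male germ cell programme were lower in 5 of 8 cases in F1 (median -0.04) and 6 of 8 in F3 (median -0.48). With edgeR 0 of them were called. At an unadjusted p under 0.05, 3 in F1 and 1 in F3 were lower, against 4.13% and 10.0% of all genes. DESeq2 called *Tdrd5* lower in F1 and 0 in F3, against 0.544% and 5.95% of all genes called lower. *Tdrd5*, a tudor protein of the piRNA pathway, was at -0.61 (SE 0.122, adjusted p = 0.359) in F1, and *Nanos2*, which promotes the male germ cell fate, at -1.72 (SE 0.402, adjusted p = 0.446). *Nanos2* had 5.01, 7.40 and 5.01 CPM in F1 control pools and 2.34, 2.36 and 0.639 CPM in F1 *thia* pools, a difference of the size of that of *Dppa3* but at a far lower level. *Morc1* (-0.28) and *Tdrd9* (0.29) followed in F1. In F3, *Mael* was at -0.48 (SE 0.204, adjusted p = 0.234), *Dnmt3l* at -0.47 (SE 0.314, adjusted p = 0.436), *Tdrd5* at -0.54 (SE 0.379, adjusted p = 0.457) and *Nanos2* at -0.88 (SE 0.747, adjusted p = 0.539). *Mael* also belongs to the germ cell markers.

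The neighbours of *Dppa3* on chromosome 6 were at smaller differences in F1. *Gdf3*, a growth factor of the TGF-beta family that ends 16.3 kb before *Dppa3*, was at -0.48 (SE 0.463, adjusted p = 0.739) in F1 and -0.33 (SE 0.364, adjusted p = 0.646) in F3, at 0.546 to 0.805 CPM on average per group. On the other side, past *Nanog*, the glucose transporter gene *Slc2a3* begins 13.2 kb after the end of *Nanog* and was at -0.05 (SE 0.110, adjusted p = 0.885) in F1 and -0.15 (SE 0.146, adjusted p = 0.600) in F3. Its pools had 50.6 to 64.6 CPM in F1, so its interval is much narrower than that of *Gdf3*. 

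**Figure D4:**
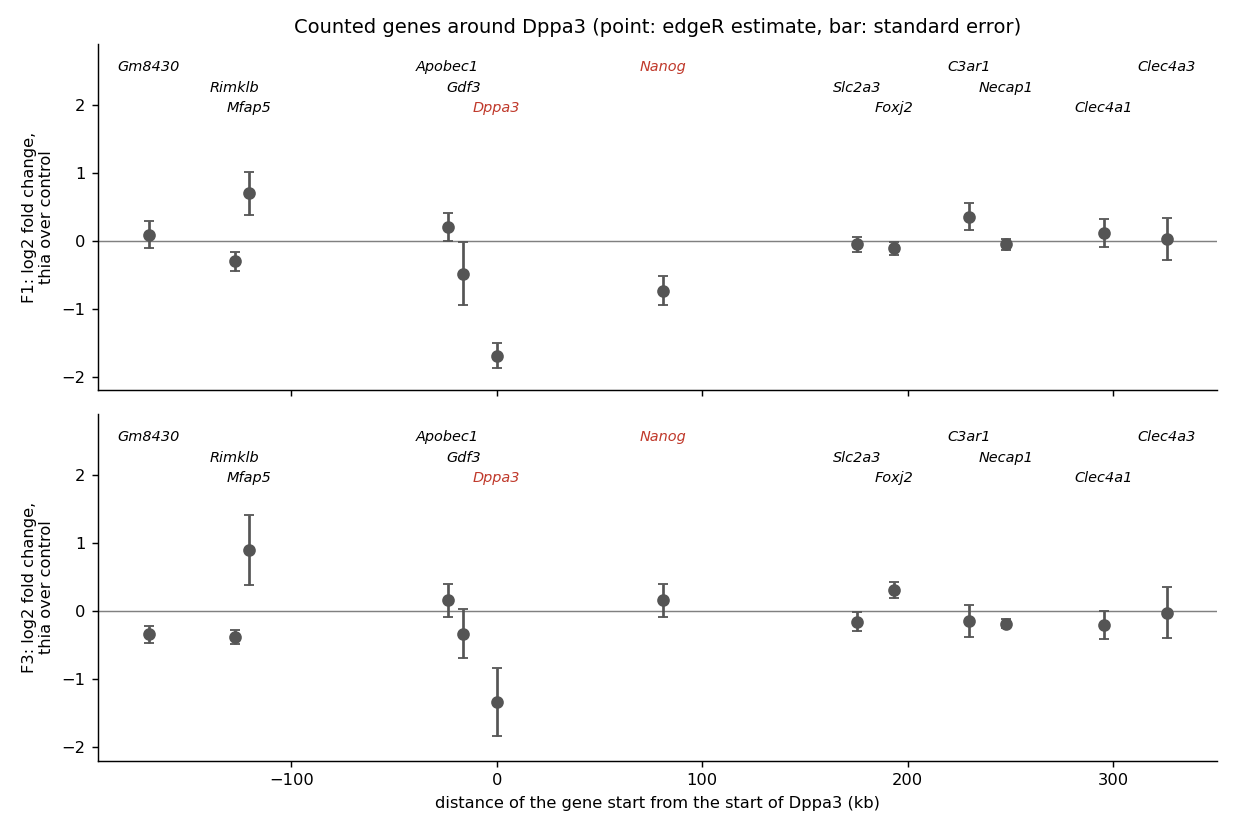
Log2 fold change of *thia* over control (y axis, edgeR estimate and standard error) of the counted genes that passed the filter around *Dppa3*, placed by the distance of their start from that of *Dppa3* in kb (x axis), F1 above and F3 below. *Dppa3* at -1.69 in F1 and -1.34 in F3 lies lowest in both panels.

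Over the 12 pools, the genes whose log2 CPM ran most like that of *Dppa3* were *Gm31579*, *Gm41*, *Gm38425* and *Taf7* (Pearson r = 0.97 each), *Asz1*, *Spata17* and *Xlr5a* (0.96 each), and *Nanos3*, *Tdp2* and *Gm3143* (0.95 each), out of 19625 genes with a median r of 0.01. The 12 points share the group differences and any difference in germ cell content between the pools, which was not measured, so these values are a description. *Asz1*, a piRNA factor, and *Nanos3* belong to the germ cell markers, *Taf7* encodes a subunit of TFIID and *Tdp2* a DNA end-processing enzyme. *Xlr5a* is 1 member of a family of near-identical genes and its counts are uncertain. All 10 were lower in F1 *thia*, from -0.32 for *Tdp2* to -1.44 for *Gm3143*. *Gm3143* was at 0.262 CPM in F1 control and 0.0991 CPM in F1 *thia*, so its values rest on few counts. The 9 that were tested in F3 were lower there too, from -0.37 for *Tdp2* to -0.97 for *Nanos3*, with no adjusted p under 0.1 by edgeR. DESeq2 gave *Asz1* (0.0146), *Gm38425* (0.0411), *Nanos3* (0.0789), *Taf7* (0.0886) and *Gm41* (0.0963) an adjusted p under 0.1 in F3. It called 5.95% of all genes as lower there. The genes were picked for following *Dppa3* over these same pools, so their lower *thia* levels and p values are no separate result. With the group means removed, r was between 0.87 and 0.97 for these genes, but only 1 of the 10, *Xlr5a* at rank 3, was still among the 10 highest.

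Among the 10 genes themselves, *Dppa5a* ran closest to *Dppa3* (r = 0.95, rank 15 of the 19625), followed by *Lin28a* (0.91), *Pou5f1* (0.89), *Sox2* (0.85), *Utf1* (0.84), *Sall4* (0.79), *Tfap2c* (0.75), *Nanog* (0.67) and *Prdm14* (0.30). *Ddx4* had 0.89 and *Dazl* 0.74, so several members were no closer to *Dppa3* than general germ cell markers. With the group means removed, *Nanog* dropped to 0.17 while *Lin28a* (0.87), *Pou5f1* (0.86) and *Dppa5a* (0.85) stayed near *Ddx4* (0.86).

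**Figure D5:**
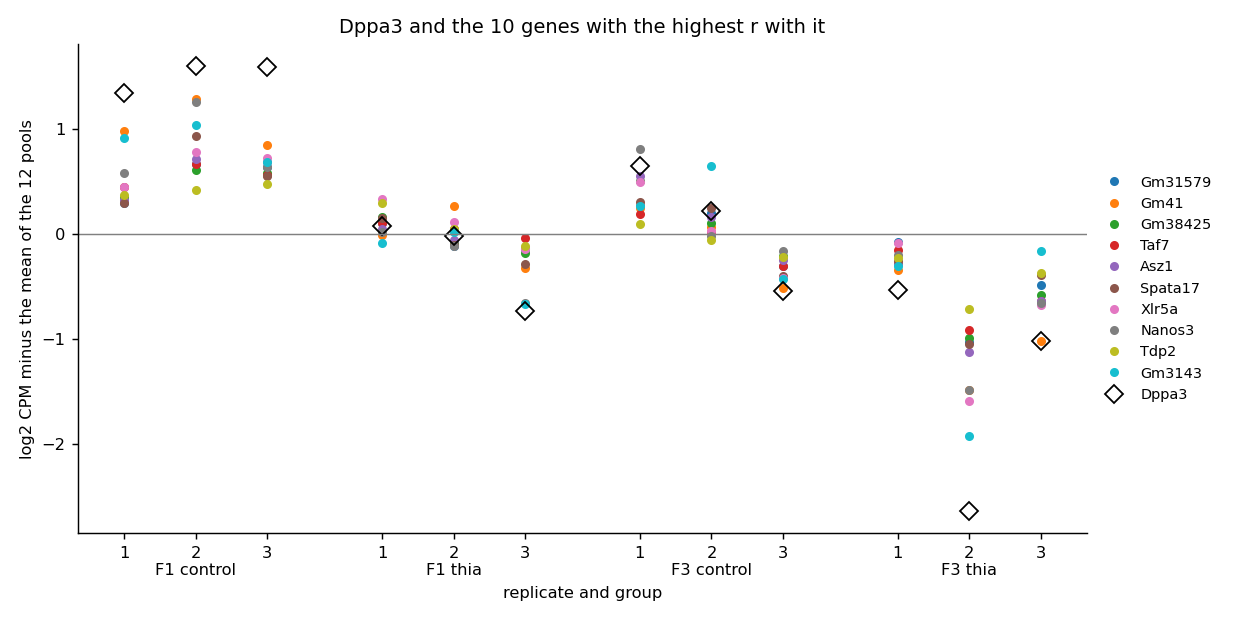
Log2 CPM (prior count 2) of *Dppa3* (open diamonds) and of the 10 genes with the highest r with it (coloured points), each minus its mean over the 12 pools (y axis), by replicate and group (x axis). *Dppa3* has the widest swing, and F3 *thia* replicate 2 is the lowest pool for it.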

How the data were processed

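Strand-specific paired-end RNA-seq libraries were made from 12 pools of E15.5 testes. The authors mapped reads to mm10 with HISAT2 2.1.0 and counted them with featureCounts on refGene, per the methods and the labels, and the deposited values are raw counts per gene symbol. Whether reads or pairs were counted is not given in the sources used here. Counts were analysed in edgeR 4.0.16 (R 4.3.3, limma 3.58.1), with DESeq2 1.42.0 as an alternative, and tabulated in Python 3.11.15. Genes were kept by filterByExpr (minimum count 10) and libraries scaled by TMM. For F1 and F3 separately, *thia* pools were tested against control pools by edgeR's quasi-likelihood method, at the FDR of 0.15 in F1 and 0.1 in F3 that the study used, and standard errors were derived from that test. Log2 CPM used a prior count of 2. Exon lengths and positions came from GENCODE M21. RPKM is CPM per kilobase of exon. The fit was tested on simulated data.

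The 10 genes and all lists were chosen with earlier results of these data known. Named are the 10 genes, the 10 genes with the highest r with *Dppa3*, at most 4 genes per pathway list and generation with the smallest p, *Ddx4*, *Dazl* and the nearest counted genes beside *Dppa3* and *Nanog*. The labels say that pools are biological replicates, and no 2 replicates agreed within sampling noise (chi-square over degrees of freedom 17.3 to 101). The alternatives were DESeq2, other size factors, no filter, all 12 libraries in a single fit, an FDR of 0.05, a replicate block, leaving out each pool, and, for *Dppa3* relative to germ cells and the likeness ranking, other markers, prior counts or correlations. The methylation, ChIP and histology data of the study were not used here.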

Additional observations from a re-analysis of the deposited data

How the results depend on the processing

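The number of members called depended on the tool and filter. In F1, where the counts only describe the values that chose the genes, it was 1 as reported, 5 with no filter on low counts, 4 with DESeq2, 0 with all 12 libraries in a single fit, and 0 to 1 when a pool was left out, with 0 without F1 control replicate 2 or F1 control replicate 3. In F3 it was 0 as reported, 1 with DESeq2, 3 with all 12 libraries in a single fit (*Dppa3*, *Pou5f1* and *Dppa5a*), and 0 in each fit that left out a pool. Over all genes, the calls in F1 were 2, against 243 with no filter, 199 with DESeq2, 0 in the single fit, 3 with the replicate block, and 0, 1 or 20 without F1 control replicate 2, F1 *thia* replicate 1 or 3, or F1 control replicate 1. In F3 they were 0, against 520 with upper quartile scaling (311 lower, 209 higher), 569 with no filter (203 and 366), 2288 with DESeq2 (879 and 1409), 1936 in the single fit 1294 without F3 *thia* replicate 2, and 0 to 2 without any other pool. The cause of these moves was not tested.

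*Dppa3* kept its direction under every alternative run. Without a pool its log2 fold change was -1.84 to -1.47 in F1, and -1.79 to -0.95 in F3 with adjusted p from 0.146 to 0.503. The single fit gave -1.33 in F3 (adjusted p = 0.0836). Relative to the germ cell markers it was -1.62 to -1.29 in F1 and -1.37 to -0.74 in F3 without a pool. With the geometric mean of the markers in place of their sum it was -1.39 in F1 and -1.12 in F3. Relative to *Ddx4* alone it was -1.27 in F1 and -0.99 in F3. The sum gave the largest difference of the 3 in each generation. Members with a lower mean numbered 8 to 9 in F1 and 6 to 10 in F3 without a pool. Same-numbered pools deviated from their group means with correlations of -0.04 to 0.03 in F1 and -0.37 to 0.19 in F3, so the numbers were not taken as pairs. The replicate block gave *Dppa3* -1.72 in F1, without a test, and -1.46 (adjusted p = 0.223) in F3, and it changed no call of a member. Of the 10 genes most like *Dppa3*, 9 were shared at a prior count of 0.5, 6 with Spearman's rho and 1 with group means removed. *Nanog*, *Sox2*, *Tfap2c* and *Prdm14* rest on 54 to 184 counts summed per group in F3, and whether depth limits their tests was not examined.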
